A study of Mus musculus with 2 samples.

Results

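Histone genes were examined on short-oligonucleotide arrays of G1E cells, mouse erythroid precursors that have no endogenous GATA-1. The estradiol group was 1 array of cells carrying ER-GATA-1(V205G) and given 1 µM estradiol for 24 h, and the untreated group was 1 array of the same cells before estradiol. Both groups therefore lack GATA-1 itself and carry the fusion, in which an estrogen receptor ligand-binding domain holds a FOG-1-binding defective GATA-1 mutant inactive until estradiol is added. Whether the cells were 1 clone is not stated in the labels, and the effects of the active mutant, of estradiol and of the time in culture cannot be told apart. The members are the probe sets (groups of probes that report 1 signal) whose gene symbol in the platform annotation starts with one of the histone prefixes Hist1h, Hist2h, Hist3h, Hist4h, H1f, H2af, H3f, H2ac, H2bc, H3c or H4c. They number 42 of 45037 probe sets, array controls left out. Replication-dependent histones accounted for 30 of them, variant histones for 8 and germ cell linker histones for 4.

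Histones H2A, H2B, H3 and H4 form the protein core around which DNA is wrapped, and the linker histone H1 binds where the DNA enters and leaves. Replication-dependent histone genes lie in clusters, are transcribed mainly in S phase, and give messenger RNAs that end in a stem-loop bound by SLBP instead of a poly(A) tail. Variant histones such as H3.3 are made throughout the cell cycle from polyadenylated messages and are placed by chaperones of their own. The labels name only the manufacturer's standard labelling protocol, and how much of the non-polyadenylated message it captured was not tested. Histone genes of 1 family are close copies: 22 members carried several gene symbols, up to 13, and 20 carried a single symbol. Even a probe set with a single symbol may read related genes, so the values belong to probe sets first and to genes second.

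A signal was read against a floor of 95.2, the median signal of both arrays together. Of the 42 members, 20 reached it on both arrays and are called measured, 4 reached it on 1 array and give only a bound, and 18 lay below it on both. No measured member differed by 2-fold or more, where 3.04% of all 21054 measured probe sets did, 2.03% of them upward after estradiol and 1.01% downward. At 1.5-fold 2 members were higher and 0 lower, against a background of 7.59% higher and 4.60% lower, 12.2% in all. Both were probe sets of H1f2, of which 1 stayed past 1.5-fold with a common median. The median log2 ratio of estradiol over untreated was 0.28 for the 12 measured replication-dependent probe sets and 0.03 for the 7 measured variant probe sets, beside 0.02 for all measured probe sets. Each condition was 1 array, so no difference here has a replicate check. The only error at hand is how far probe sets of 1 gene differ in log2 ratio, with a pooled SD of 0.25. Here 2 SD correspond to 1.42-fold. This SD comes from the same 2 arrays and holds no variation between arrays or cultures. Beyond 2 SD (0.50) lay 3513 of all 21054 measured probe sets and 4 of the 20 measured members. These genes fall into a lowest, middle and highest class by the mean signal of their probe sets, and 2 SD within these are 0.61, 0.51 and 0.36. Each probe set was read against the class that its own mean signal falls in, so probe sets of 1 gene can differ in class. By class 3 of these 4 members stayed beyond 2 SD, and H3f3b 1430357_at (0.52) did not.

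**Figure D1:**
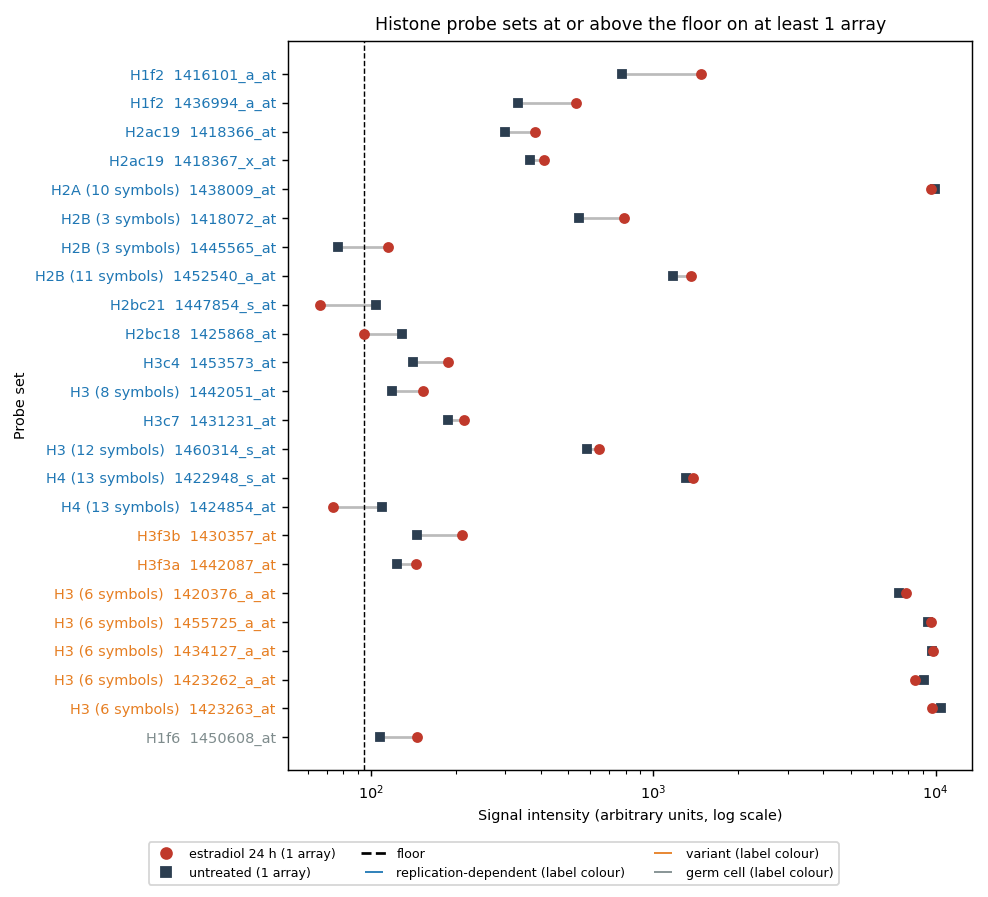
Signal intensity on a log axis of the 24 histone probe sets that reached the floor on at least 1 array, with the estradiol array as circles and the untreated array as squares. The dashed line is the floor of 95.2, and label colours give the class. The widest gap of a measured member is that of H1f2 1416101_a_at, at 1475 with estradiol and 776 untreated, while the H3.3 probe sets with 6 symbols nearly coincide.

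The linker histone H1f2 (H1.2, formerly Hist1h1c) was higher after estradiol on both of its measured probe sets. H1f2 is a somatic linker histone of the chromosome 13 histone cluster. Its probe set 1416101_a_at read 1475 with estradiol and 776 untreated, 1.90-fold higher, a log2 ratio of 0.93. Its probe set 1436994_a_at read 532 with estradiol and 332 untreated, 1.60-fold higher, a log2 ratio of 0.68. Both ratios exceed 2 SD for probe sets of their signal, 0.36 in the highest class and 0.61 in the lowest. The remaining H1f2 probe set, 1438204_at, read 58.1 with estradiol and 23.2 untreated, below the floor on both arrays, so no ratio was formed. H1f4 (H1.4), another somatic linker histone, had 1 probe set, at 82.1 with estradiol and 69.8 untreated, also below the floor. With a common median of both arrays 1436994_a_at had a log2 ratio of 0.57, under both 1.5-fold and its 2 SD, while 1416101_a_at had 0.81. Under the other scalings and floors tried 1436994_a_at ranged from 0.63 to 0.68 and 1416101_a_at from 0.91 to 0.94.

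Germ cell linker histones were dim on both arrays. H1f6 (H1t), the testis linker histone, read 146 with estradiol and 108 untreated, a log2 ratio of 0.44, within 2 SD (0.61) for signals this low. H1f7, a spermatid linker histone, read 11.8 and 71.5 with estradiol on its pair of probe sets, against 21.6 and 37.7 untreated. H1f8, the oocyte linker histone, read 3.10 on both arrays. H1f10 (H1.X), a somatic variant, read 92.9 with estradiol and 84.0 untreated, just under the floor on both arrays.

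The promoters of H1f2, of its relative H1f4 and of the testis gene H1f6 are shown because the 3 genes lie in the same cluster on chromosome 13. H1f2 passed 1.5-fold, H1f4 lay below the floor and H1f6 was within 2 SD. Each is the RefSeq sequence on GRCm38.p6 from 250 bases before to 50 bases after the annotated start, and the window is chr13:23738557-23738856 on the plus strand for H1f2, chr13:23622509-23622808 on the minus strand for H1f4 and chr13:23695561-23695860 on the plus strand for H1f6. Capitals mark matches on either strand to the H1 box of linker histone promoters (AAACACA), the CCAAT letters, the TATA box (TATAAA), the octamer bound by OCT factors (ATTTGCAT) or a GATA hexamer. The hexamers searched were AGATAA and its forms with T as the first letter, G as the last letter, or both. No matches overlap in the promoters shown.
H1f2: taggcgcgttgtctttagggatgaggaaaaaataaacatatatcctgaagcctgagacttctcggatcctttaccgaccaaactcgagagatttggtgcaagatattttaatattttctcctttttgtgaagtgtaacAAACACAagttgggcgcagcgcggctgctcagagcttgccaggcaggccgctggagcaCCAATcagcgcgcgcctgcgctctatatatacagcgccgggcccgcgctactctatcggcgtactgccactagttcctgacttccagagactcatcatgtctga
H1f4: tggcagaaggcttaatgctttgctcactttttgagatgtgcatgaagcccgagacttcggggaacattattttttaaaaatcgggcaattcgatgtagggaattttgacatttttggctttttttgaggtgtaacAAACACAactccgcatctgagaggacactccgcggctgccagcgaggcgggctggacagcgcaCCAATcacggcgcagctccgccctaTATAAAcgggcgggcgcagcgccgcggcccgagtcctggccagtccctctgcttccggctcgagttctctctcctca
H1f6: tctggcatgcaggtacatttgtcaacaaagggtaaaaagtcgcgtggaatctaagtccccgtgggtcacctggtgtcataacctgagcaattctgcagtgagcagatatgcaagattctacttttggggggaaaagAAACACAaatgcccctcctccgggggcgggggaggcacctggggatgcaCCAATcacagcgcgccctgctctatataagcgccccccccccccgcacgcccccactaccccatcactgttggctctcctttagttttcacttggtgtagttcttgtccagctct
The H1 box starts 112 bases upstream of the start in H1f2, 115 in H1f4 and 114 in H1f6. The CCAAT letters start 54 bases upstream in H1f2, 52 in H1f4 and 65 in H1f6. The exact letters TATAAA are present only in H1f4 among the 3, 27 bases upstream. The close forms tatatata in H1f2 and tatataag in H1f6 were not searched, so a TATA box there is not excluded. None of the 3 holds a GATA hexamer in this window. The H1 box is in 7.18% of all 32851 promoters, CCAAT in 37.4%, TATAAA in 13.6% and at least 1 GATA hexamer in 29.8%. With H1f4 below the floor and H1f6 close to it, these letters cannot be set against the ratios, and no link was tested.

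Among the members, core histones of the replication-dependent class differed less than H1f2. The H2A gene H2aw, which the prefixes do not catch, is not counted here. Its probe set shared with Trim17 had a log2 ratio of 1.04, above those of H1f2. Over H2A, H2B, H3 and H4 together, 9 of 10 measured probe sets lay above a log2 ratio of 0 and 1 below, with a median of 0.20 and a range of -0.06 to 0.53, and 0 of 10 passed 1.5-fold. Of all measured probe sets 52.4% lay above 0. These probe sets share genes and cross-read close copies, so they are not separate observations. With both arrays set to a common median instead of a common trimmed mean, all measured probe sets shift to a median of -0.09, and 10 of the 12 replication-dependent probe sets, H1f2 included, lay above 0 against 11 of 12 otherwise.

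Among H2A genes, the probe set assigned to the most genes was level between the arrays. Probe set 1438009_at, assigned to 10 H2A genes of the chromosome 13 cluster, read 9599 with estradiol and 9985 untreated, a log2 ratio of -0.06. H2ac19, an H2A gene of the chromosome 3 cluster, read 382 with estradiol and 300.0 untreated on 1418366_at, a log2 ratio of 0.35. Its other probe set, 1418367_x_at, read 412 with estradiol and 366 untreated, a log2 ratio of 0.17. Both H2ac19 ratios are within 2 SD for their signal. A probe set shared by H2ac19 and H2ac18, 1438815_at, lay below the floor at 56.0 with estradiol and 40.2 untreated.

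Of the 9 H2B probe sets 2 were measured, both above 0 and short of 1.5-fold, 3 gave bounds and 4 lay below the floor. Probe set 1418072_at, shared by H2bc8, H2bc6 and H2bc4 of chromosome 13, read 791 with estradiol and 549 untreated, 1.44-fold higher, a log2 ratio of 0.53 that just passes 2 SD (0.51) for its signal. It was 0.42 with a common median and 0.50 with quantile normalization, which do not pass. The same 3 genes share 1445565_at, which read 115 with estradiol and 76.9 untreated and is at least 1.21-fold higher, and 1440330_at, below the floor at 49.6 with estradiol and 36.7 untreated. All 3 probe sets of these genes read higher on the estradiol array, but only 1418072_at was measured on both arrays. Probe set 1452540_a_at, assigned to 11 symbols, read 1364 with estradiol and 1181 untreated, a log2 ratio of 0.21.

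The chromosome 3 H2B genes were dimmer on the estradiol array, close to the floor. H2bc18 read 95.0 with estradiol, a little under the floor, and 129 untreated, at least 1.35-fold lower. H2bc21 (formerly Hist2h2be) read 66.0 with estradiol and 105 untreated on 1447854_s_at, at least 1.10-fold lower. Its other probe set, 1455095_at, read 52.9 with estradiol and 84.7 untreated, below the floor on both arrays. Their chromosome 3 neighbour H2ac19 had ratios above 0 on both probe sets. Signals this low carry the largest probe error, and all lower H2B values are bounds or lie below the floor. H2bc22, on chromosome 13, was below the floor at 40.4 with estradiol and 45.1 untreated, as was 1425398_at, assigned to 6 symbols, at 58.1 with estradiol and 42.4 untreated.

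The promoter of H2bc8 is shown for the H2B group with the highest measured ratio, at chr13:23571150-23571449 on the plus strand. That probe set is shared by H2bc8, H2bc6 and H2bc4, and which of them gave its signal cannot be told.
H2bc8: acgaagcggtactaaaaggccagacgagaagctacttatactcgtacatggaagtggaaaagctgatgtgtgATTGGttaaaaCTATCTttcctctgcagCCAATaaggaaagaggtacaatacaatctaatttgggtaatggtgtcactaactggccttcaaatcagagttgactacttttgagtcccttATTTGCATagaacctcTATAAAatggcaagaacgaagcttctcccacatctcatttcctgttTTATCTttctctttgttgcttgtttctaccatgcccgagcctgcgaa
It holds the octamer 59 bases and TATAAA 43 bases upstream of the start, and CCAAT on both strands further up. Its GATA hexamers, AGATAG 167 bases upstream and AGATAA from base 4 after the start, both read on the opposite strand. The octamer is in 4 of 11 H2B and 4 of 12 H2A promoters of the members, in 0 of 10 H3 and 0 of 11 H4 promoters, and in 1.74% of all promoters. GATA hexamers are in 14 of 46 promoters of replication-dependent members, 30.4%, which is close to their share of all promoters. Of the 57 gene symbols among the members 52 had a promoter in the table.

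The 4 measured of 8 replication-dependent H3 probe sets lay above 0 and within 2 SD. H3c4 read 188 with estradiol and 142 untreated, a log2 ratio of 0.41. H3c7 read 214 with estradiol and 188 untreated, a log2 ratio of 0.19. Probe set 1460314_s_at, assigned to 12 H3 genes, read 645 with estradiol and 585 untreated, a log2 ratio of 0.14. These H3 genes encode the H3.1 and H3.2 proteins that are placed behind the replication fork. Probe set 1442051_at, shared by 8 of the genes, read 154 with estradiol and 119 untreated, a log2 ratio of 0.36. The other 4 H3 probe sets, that of H3c11 among them, were below the floor on both arrays, with signals from 12.6 to 37.5 with estradiol and from 6.60 to 42.4 untreated.

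H4, whose genes all encode nearly the same protein, was covered by 5 probe sets that carry the same 13 symbols. Probe set 1422948_s_at read 1380 with estradiol and 1310 untreated, a log2 ratio of 0.08 that turns to -0.04 with a common median. Probe set 1424854_at read 73.9 with estradiol and 110 untreated, at least 1.15-fold lower. The other 3 lay below the floor, with signals from 1.10 to 32.5 with estradiol and from 1.30 to 26.7 untreated. The single H4 probe set measured on both arrays therefore differed by 1.05-fold, well inside 2 SD (0.36) for its signal.

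**Figure D2:**
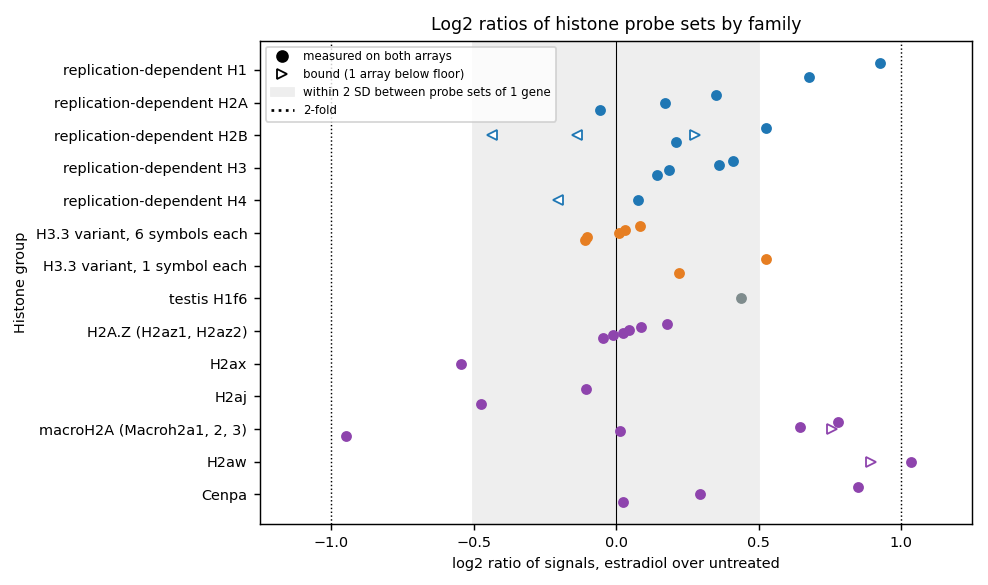
Log2 ratio of estradiol over untreated for each histone probe set, by family. Filled points were measured on both arrays, open triangles are bounds, drawn at the smallest change and pointing away from 0, the grey band is 2 SD between probe sets of 1 gene (0.50), and dotted lines mark 2-fold. Among the points outside the band are those of H1f2 (0.93 and 0.68), Macroh2a1 (-0.95) and the H2aw probe set that also carries Trim17 (1.04). The H3.3 points with 6 symbols lie at the centre.

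Variant H3.3 was level between the arrays on its bright probe sets. H3.3, encoded by H3f3a and H3f3b, replaces H3 at active genes and at heterochromatin outside S phase. Of the 5 probe sets that carry the symbols of H3f3a, H3f3b, H3f3c and 3 predicted genes, 1423263_at read 9717 with estradiol and 10481 untreated, and 1420376_a_at read 7878 with estradiol and 7428 untreated. Their log2 ratios of -0.11 and 0.08 were the lowest and highest of the 5, with a median of 0.01. The remaining ratios were -0.10 on 1423262_a_at, 0.01 on 1434127_a_at and 0.03 on 1455725_a_at. With a common median 2 of the 7 measured H3.3 probe sets lay above 0 and the class median was -0.08, against 5 of 7 otherwise. Probe sets with 1 symbol gave higher ratios in the lowest signal class: H3f3b on 1430357_at read 211 with estradiol and 147 untreated, a log2 ratio of 0.52, and H3f3a on 1442087_at read 145 with estradiol and 124 untreated, 0.22. Neither exceeds 2 SD (0.61) for signals this low.

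The promoter of H3f3b is shown as the variant counterpart, at chr11:116024455-116024754 on the minus strand.
H3f3b: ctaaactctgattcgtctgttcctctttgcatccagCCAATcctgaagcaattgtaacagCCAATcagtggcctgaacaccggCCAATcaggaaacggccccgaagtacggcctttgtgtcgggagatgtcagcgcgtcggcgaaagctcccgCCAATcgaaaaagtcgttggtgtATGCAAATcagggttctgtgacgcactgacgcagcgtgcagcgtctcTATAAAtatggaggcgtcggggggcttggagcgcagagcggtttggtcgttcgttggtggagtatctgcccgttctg
It holds CCAAT at 4 places, 214, 190, 167 and 97 bases upstream of the start, the octamer on the opposite strand 74 bases upstream and TATAAA 27 bases upstream. These are letters it shares with the replication-dependent promoters above, and it holds no GATA hexamer in this window. No GATA hexamer was found in any of the 4 promoters of variant members, where 29.8% of all promoters hold at least 1. With only 4 promoters this is too few to set against that share.

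The annotation lists many variant histones under newer symbols that the prefixes do not catch, and the largest ratios of histone genes stood among them. The RefSeq gene table gives an older symbol with one of the prefixes for 20 further histone probe sets, 14 of them measured; they were added after the values were seen and are not counted among the members. Macroh2a1 (formerly H2afy), a macroH2A gene whose protein carries a large extra domain and marks silent chromatin, read 1621 with estradiol and 3132 untreated. It was 1.93-fold lower, a log2 ratio of -0.95 that reached -1.06 with a common median. A probe set shared by the relatives Macroh2a2 and Macroh2a3, 1421612_a_at, read 723 with estradiol and 421 untreated, 1.72-fold higher. Macroh2a3, listed as a transcribed pseudogene, read 230 with estradiol and 147 untreated on 1450307_x_at (0.65), but 173 with estradiol and 171 untreated on 1421613_at (0.01). The ratio of 1450307_x_at just passes 2 SD (0.61) for its signal, but was 0.53 with a common median, which does not pass. Macroh2a2 alone read 161 with estradiol and 34.3 untreated on 1426363_x_at, at least 1.69-fold higher.

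H2A.Z, the variant found at promoters, was level between the arrays. Its 4 H2az1 probe sets had log2 ratios from -0.05 to 0.05, with 14205 with estradiol and 13961 untreated on 1438091_a_at, and the H2az2 probe sets had 0.09 and 0.18. H2ax, the variant that is phosphorylated at DNA breaks, read 1621 with estradiol and 2363 untreated, 1.46-fold lower, a log2 ratio of -0.54 beyond 2 SD (0.36) for its signal. H2aj had log2 ratios of -0.11 on 1424771_at and -0.48 on 1424772_at, of which the second read 499 with estradiol and 694 untreated. H2aw (formerly Hist3h2a), a replication-dependent type H2A gene, was the only histone symbol past 2-fold: 1435865_at, which also carries Trim17, read 1295 with estradiol and 632 untreated, 2.05-fold higher. Its log2 ratio was 1.04, and 0.92 with a common median, where it no longer passes 2-fold. Whether H2aw or Trim17 gave this signal cannot be told. The H2aw probe set without Trim17, 1435866_s_at, read 177 with estradiol and 81.7 untreated, at least 1.86-fold higher, and 1455712_at was below the floor at 19.5 with estradiol and 43.1 untreated. Cenpa, the centromeric H3 variant, has no such older symbol and was added by name. It had log2 ratios of 0.30 on 1450842_a_at, with 4557 with estradiol and 3714 untreated, and of 0.03 and 0.85 on its other probe sets.

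**Figure D3:**
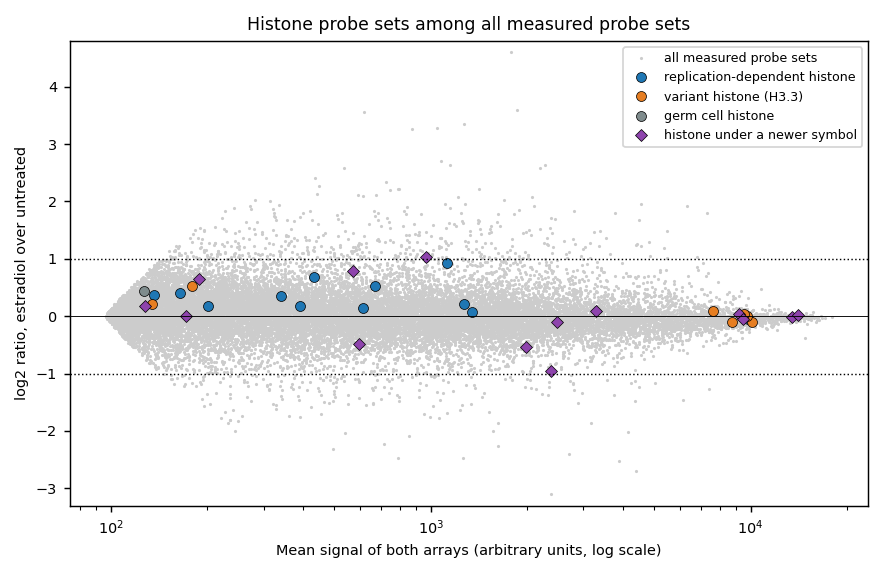
Log2 ratio of estradiol over untreated against the mean signal of both arrays on a log axis, for all 21054 measured probe sets (grey), measured histone members (circles coloured by class) and histone probe sets under newer symbols (diamonds). Dotted lines mark 2-fold. All 20 measured members lie between the lines, from -0.11 to 0.93, and 1 diamond, H2aw with Trim17, lies above.

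Lists of genes that make and place histones had medians a little below 0. For each gene the brightest probe set assigned to it alone was used, and of all 10240 measured genes 3.14% passed 2-fold (2.04% higher and 1.10% lower). At 1.5-fold 12.0% passed (7.11% higher and 4.85% lower), and the median of all was 0.00, with 50.1% above 0. Of 21 measured genes of histone mRNA processing 5 lay above 0 and 16 below, none past 1.5-fold on its brightest probe set, with a median of -0.09. Slbp, which encodes the stem-loop binding protein, read 6083 with estradiol and 7096 untreated, a log2 ratio of -0.22, with -0.01 on its other probe set. Npat, the coactivator of the histone clusters, read 1516 with estradiol and 1552 untreated (-0.03). Lsm10, a component of the U7 particle that cuts histone pre-mRNA, was the lowest measured at -0.35, and Ncbp1 of the cap-binding complex the highest at 0.20. Dimmer probe sets reached further, at -0.68 for Cpsf2, -0.40 for Lsm11 and 0.35 for Eri1. Zfp473, a U7-associated processing factor, read 66.5 with estradiol and 125 untreated, a bound of at least 1.31-fold lower.

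Of 26 measured histone chaperone genes 7 lay above 0 and 19 below, with a median of -0.12. Spty2d1, a histone-binding chaperone gene, was the only 1 past 2-fold, at 2730 with estradiol and 1307 untreated, 2.09-fold higher, with a log2 ratio of 1.42 on its other probe set. Tonsl, which reads newly placed H4 behind the fork, was 1.61-fold lower, at 531 with estradiol and 858 untreated. Asf1b, the proliferation-linked H3-H4 chaperone, read 2293 with estradiol and 2962 untreated (-0.37). Chaf1b of the CAF-1 complex, which places H3 and H4 during replication, read 970.0 with estradiol and 1236 untreated (-0.35), but its other probe set had 0.75. Chaf1a, of the same complex, had no probe set of its own. Genes of H2A.Z exchange had a median of -0.08 over 17 measured members, from -0.42 for the ATPase gene Ruvbl1 to 0.30 for Srcap, none past 1.5-fold. The other measured probe set of Srcap had -0.54, so its direction is not settled.

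The S phase genes, which mark the phase in which these histones are made, had a median log2 ratio of -0.15 over 23 measured members, 6 above 0 and 17 below, none past 2-fold. Tk1, thymidine kinase, was 1.83-fold lower, at 1476 with estradiol and 2708 untreated, and Ccne1, cyclin E1, was 1.71-fold higher, at 2154 with estradiol and 1260 untreated. Slbp is counted in this list as well as among the processing genes. The replication-dependent histone median of 0.28 and the S phase median lay on opposite sides of 0, but they are unlike measures. The first is over probe sets that share genes, the second over the brightest probe set of each gene. Without H1f2 the histone median was 0.20. The brightest replication-dependent probe set, 1438009_at, had -0.06, and the H4 probe set 1422948_s_at had 0.08. Whether histone and S phase ratios differ was not tested.

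**Figure D4:**
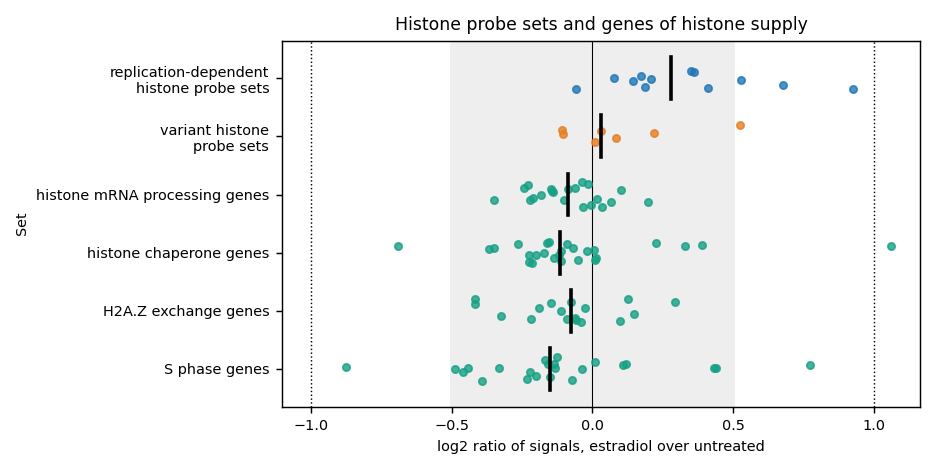
Log2 ratios of estradiol over untreated for the measured replication-dependent (12) and variant (7) histone probe sets and for measured genes of the 4 lists on histone supply, with a black bar at each median. The grey band is 2 SD between probe sets of 1 gene and dotted lines mark 2-fold. The medians of the 4 lists lie from -0.15 to -0.08, and that of the replication-dependent histones at 0.28.

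Set against each other, the replication-dependent class had a median 0.25 above that of the variant class on the log2 scale. The gap rests on how probe sets are counted. The 5 bright H3.3 probe sets carry the same symbols and make up most of the variant class, and with 1 value for each set of symbols the class medians were 0.23 over 10 sets and 0.22 over 3, a difference of 0.015. With only the probe sets of a single symbol the medians were 0.38 and 0.37. Without H1f2 the replication-dependent median was 0.20. The difference thus moved with this choice, and no test of it was possible.

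The arrays and cells behind these values were checked as far as the table allows. The deposited signals had a 2% trimmed mean of 500.0 on each array, and 22904 probe sets reached the floor with estradiol and 22139 untreated. Of 10 erythroid lineage markers with a probe set of their own 9 were measured, 5 above 0 and 4 below, and 1 gave a bound. Alas2, the erythroid heme synthesis enzyme, read 3430 with estradiol and 283 untreated, and Tal1, a progenitor transcription factor, read 4026 with estradiol and 5947 untreated. The summed erythroid marker signal was 45643 with estradiol and 38406 untreated. Of 9 mast cell and basophil markers 4 were measured, 2 above 0 and 2 below, with a summed signal of 5890 with estradiol and 9250 untreated. Within that sum the mast cell tryptase Tpsab1 read 3418 with estradiol and 140.0 untreated, and the carboxypeptidase Cpa3 read 1146 with estradiol and 6616 untreated. No lymphoid marker of 4 reached the floor on either array. Whether these shifts have a part in the histone ratios was not tested.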

How the data were processed

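The 2 samples were 1 array of G1E cells with ER-GATA-1(V205G) after 24 h of estradiol and 1 array before it. The deposited values are linear signal intensities per probe set. GCOS is the software named per the submitters' processing notes, with no version. Such intensities can hold cross-hybridisation between close copies. Detection calls were not used here.

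Signals of 45037 non-control probe sets were rescaled to a common 2% trimmed mean (factors 1.00006 for estradiol and 0.999941 for untreated). The floor was the 50th percentile over both arrays. A probe set at or above it on both arrays was measured; where only 1 array reached it, the other was set at the floor, which gives a bound. Values are log2 ratios of estradiol over untreated, called at 2-fold. With 1 array per group there is no test, and the number of arrays limits the precision. Genes were named through the platform annotation: 34945 probe sets had 1 symbol, 932 several and 9160 none. The error is the pooled SD between 12514 measured probe sets of 4586 genes, and the signal classes divide at 468 and 1038.

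Classes follow gene symbols: replication-dependent genes are the cluster genes and H1f2 and H1f4, and H1f6, H1f7 and H1f8 form the germ cell class. Named genes are members past 1.5-fold, the linker and variant genes, the brightest replication-dependent probe sets and, of other lists, those past 1.5-fold, the extremes and Slbp, Npat, Asf1b, Chaf1a and Chaf1b; other members were named to account for all of them, and histones under newer symbols after their values were seen. The members, lists and rules were chosen with earlier results of these data known. Alternatives covered the scaling, the floor (30th or 70th percentile, or 16 added with no floor), the probe sets that count and thresholds of 1.5-fold and 3-fold. Motifs were searched on both strands. The steps were tested on simulated data. Calculations used matplotlib 3.10.9, statsmodels 0.14.6, pandas 2.3.3 and numpy 2.4.6 under Python 3.11.15.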

Additional observations from a re-analysis of the deposited data

How the results depend on the processing

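The difference between the class medians, reported as 0.25, did not hold: it was 0.015 with 1 value per set of symbols, 0.0079 with only probe sets of a single symbol, -0.074 with the brightest probe set of each gene and -0.036 with the median per gene. It ranged from 0.13 to 0.33 under the other alternatives. The variant median was 0.37 over 2 units with only probe sets of a single symbol, with the brightest probe set of each gene and with the median of each gene's probe sets. At 1.5-fold 2 replication-dependent probe sets were higher, and 1 was at least 2-fold higher where older symbols were included, an alternative chosen after seeing the data, as were 1 value per set of symbols and leaving out H1f2. The replication-dependent median was lowest with a common median (0.17 over 12 probe sets) and highest with single symbols (0.38 over 6), and it was 0.21 over 23 with a floor at the 30th percentile and 0.19 over 8 at the 70th. None of 229 values of single probe sets moved by 1 SD (0.25) or more, though 1436994_a_at of H1f2 fell under 1.5-fold with a common median (0.57). Signal near the floor limits most members, and cross-reading of copies could not be measured. No paired analysis was possible because each group holds 1 array.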

Other observations

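The 14 replication-dependent probe sets below the floor on both arrays were also set side by side with 16 added to each signal instead of a floor. Of them 9 had a log2 ratio above 0 and 5 below, with a median of 0.17, and none reached 2-fold. The highest was the dim H1f2 probe set 1438204_at at 0.92, and the lowest was H2bc21 on 1455095_at at -0.55. The 4 probe sets with bounds split into 1 above 0 and 3 below on the same scale.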
